A study of Homo sapiens with 6 samples.

Results

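The miR-130, miR-301 and miR-454 family was examined in small RNA libraries of A549 cells, a human lung adenocarcinoma line. Its 7 members were taken as the rows named hsa-miR-130a-3p, hsa-miR-130b-3p, hsa-miR-130b-5p, hsa-miR-301a-3p, hsa-miR-301a-5p, hsa-miR-454-3p and hsa-miR-454-5p in both count tables, out of 2588 mature miRNAs listed. Both groups came from inducible METTL1 knock-down A549 cells given 200 ng/ml doxycycline and taken at day 5, so no group with intact METTL1 was compared. The first group held 3 libraries of total RNA, and the other held 3 libraries of heat-denatured RNA immunoprecipitated with an antibody against N7-methylguanosine (m7G-RIP). The short hairpin RNA was expressed from a lentiviral vector under a doxycycline-inducible promoter in a selected population. METTL1 itself is not a miRNA, so the knockdown could not be checked in these tables. The culture text of the m7G-RIP samples describes Caco-2 cells, while their titles and cell line labels say A549.

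A miRNA hairpin yields a strand from each side, named the 5p and the 3p arm. A strand loaded into Argonaute finds its target mRNAs mainly through its seed, bases 2 to 8, so strands that share a seed can repress the same mRNAs. The 3p arms of miR-130, miR-301 and miR-454 form 1 seed family, and described targets of this family include PPARG and SMAD4. METTL1 is a methyltransferase that makes m7G in tRNA and has been described to act on miRNAs, and the antibody binds RNA that carries m7G.

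The mature sequences of 6 of the 7 members, from RefSeq (GRCh38.p14), are printed 5′ to 3′ because the comparison between seed partners and between arms rests on them. Capitals mark the seed.
miR-130b-3p: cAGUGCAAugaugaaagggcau
miR-301a-3p: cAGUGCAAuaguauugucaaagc
miR-454-3p: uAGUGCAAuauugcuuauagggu
miR-130b-5p: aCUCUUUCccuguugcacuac
miR-301a-5p: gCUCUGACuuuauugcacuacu
miR-454-5p: aCCCUAUCaauauugucucugc
The 3 printed 3p arms have the seed AGUGCAA in common, and the 5p arms share no seed with each other or with the 3p arms. Beyond the seed the 3 printed 3p arms diverge. miR-130b-3p and miR-301a-3p are identical over their first 9 bases and differ at 11 of 22 positions, and miR-130b-3p and miR-454-3p differ at 12 of 22. Near-identical copies that could share reads were therefore not found among these 3. The member left out is miR-130a-3p, for which the source held no mature sequence. Whether it is a near-identical copy of another member was therefore not checked. miR-301a-3p and miR-301b-3p, in contrast, differ at only 2 of 23 positions.

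The same seed was found in miR-301b-3p, miR-3666 and miR-4295 among the 2281 listed miRNAs with a mature sequence. miR-3666 and miR-4295 had 0 counts in all 6 libraries. In the 5p arms the stretch complementary to the 3p seed, UUGCACU, starts at base 13 of miR-130b-5p and of miR-301a-5p, shown here in capitals.
miR-130b-5p: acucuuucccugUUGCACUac
miR-301a-5p: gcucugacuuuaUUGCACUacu
miR-454-5p does not hold these letters. Of 557 tested miRNAs with a sequence, 4 (0.718%) hold UUGCACU.

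The hairpins of the members lie at 3 loci of GRCh38. MIR301A (chromosome 17, 59151136 to 59151221, minus strand) and MIR454 (chromosome 17, 59137758 to 59137872, minus strand) both lie in introns of SKA2 on its strand, with 13263 bases between them. SKA2 encodes a subunit of the spindle and kinetochore associated complex. MIR130B (chromosome 22, 21653304 to 21653385, plus strand) overlaps an exon of the lncRNA gene ENSG00000207751. MIR130A (chromosome 11, 57641198 to 57641286, plus strand) lies in an intron of the lncRNA gene MIR130AHG. Both arms of MIR130B, MIR301A and MIR454 are members, while of MIR130A only the 3p arm is.

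The total RNA libraries held 9155690 to 10753443 counts and the m7G-RIP libraries 2649238 to 3106556. Levels are given as TMM-scaled CPM, counts divided by the library size after TMM scaling. This scaling is meant to correct for differences in composition. It takes most miRNAs as unchanged between the groups, which was not tested. A count of 0 was taken to allow up to 3 counts, a limit with a mean of 0.363 CPM over the total RNA libraries and of 0.876 CPM over those of m7G-RIP. Intervals and limits from counts cover counting error only. Among markers of other tissues, miR-122-5p of liver had 0 counts in all libraries, and 3 of 4 blood miRNAs did too. The remaining blood miRNA, miR-451a, had 5 counts in m7G-RIP replicate 2 and 0 in every other library. The 3 muscle miRNAs reached a summed 117 CPM in m7G-RIP replicate 2, against 0.535 and 19.4 CPM in the other m7G-RIP libraries and 9.07 to 11.8 CPM in total RNA. miR-206 of muscle was at 0 throughout and miR-141-3p of epithelium at 0 in m7G-RIP. The 5 epithelial markers were at a summed 528 to 560 CPM in total RNA and 217 to 280 CPM in m7G-RIP, and the 3 gut epithelial markers at 21592 to 22196 CPM and 2907 to 3181 CPM.

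The family was scarce in both groups. Its members made up 0.0231% ± 0.00313 of all counts in total RNA, and 0.0410% ± 0.00761 in m7G-RIP (SD, n = 3). These shares are of counts without TMM scaling. With library size alone the median log2 ratio of m7G-RIP over total RNA, over all 620 tested miRNAs, was 0.55 higher than with TMM. The rise in share is therefore not a measure of enrichment. For these levels in bulk RNA, few cells with a strand and little of it per cell cannot be told apart. Within the family 1 strand dominated. miR-130b-5p made up 71.4% ± 5.42 of the members' counts in total RNA and 84.9% ± 3.64 in m7G-RIP (SD, n = 3). miR-454-3p came second with 13.4% ± 4.44 and 9.02% ± 1.74 (SD, n = 3).

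**Figure D1:**
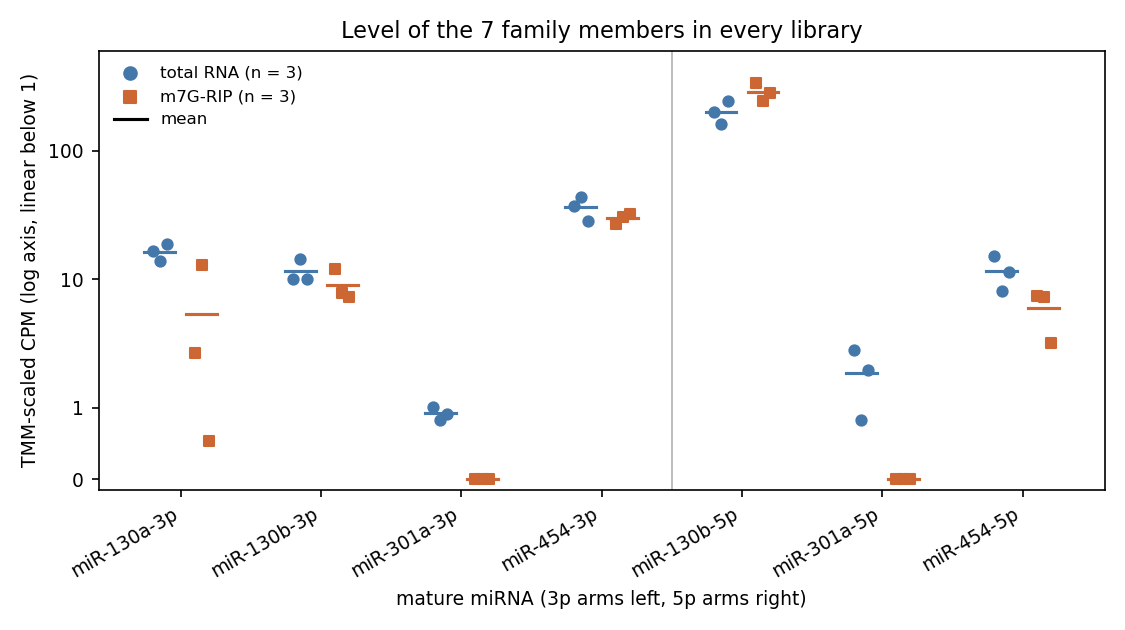
TMM-scaled CPM of each member (log axis, linear below 1) in the 3 total RNA libraries (circles) and the 3 m7G-RIP libraries (squares), with bars at the means. miR-130b-5p lies above every other member in both groups, and both miR-301a strands lie at 0 in m7G-RIP.

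In total RNA the order of levels was miR-130b-5p, miR-454-3p, miR-130a-3p, miR-454-5p, miR-130b-3p, miR-301a-5p and miR-301a-3p. The libraries of miR-130b-5p lay clear of those of miR-454-3p, and these lay clear of miR-130a-3p. miR-130a-3p, miR-454-5p and miR-130b-3p overlapped as neighbours, as did both miR-301a strands. In m7G-RIP miR-130b-5p and miR-454-3p kept the first places, and miR-130b-3p, miR-454-5p and miR-130a-3p followed with overlapping libraries.

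Recovery by the antibody was compared with input to see which family strands it enriches. None of the 5 members that could be tested passed the threshold (edgeR quasi-likelihood test, adjusted p under 0.05 over 620 miRNAs). Among all tested miRNAs 23.5% were enriched and 29.2% depleted. At an unadjusted p under 0.05, 1 of the 5 was counted, miR-130b-5p, against 59.4% of all 620. DESeq2 called 1 member enriched and 0 depleted, where it called 25.8% of all tested miRNAs enriched and 31.1% depleted. With limma-voom 1 member was called in each direction, where 27.1% of all were enriched and 35.3% depleted. The median log2 ratio of the 5 was -0.35 against -0.074 over all 620. For miR-130b-5p the 3 m7G-RIP libraries all lay above those of total RNA, as for 29.5% of tested miRNAs. For miR-130a-3p and miR-454-5p they all lay below, as for 36.5%, and the groups overlapped for miR-130b-3p and miR-454-3p. The remaining members, both strands of miR-301a, were too scarce for the expression filter.

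miR-130b-5p, the strand opposite the seed family arm, was the member with the highest ratio. It was at 202, 160 and 242 CPM in total RNA and at 337, 244 and 279 CPM in m7G-RIP, in replicates 1, 2 and 3. The groups did not overlap, but the highest total RNA library and the lowest m7G-RIP library were nearly level. The log2 ratio was 0.51 (SE 0.20, edgeR adjusted p 0.0542), a 1.42-fold difference. The strand thus missed the threshold narrowly. It was enriched with library size alone (log2 ratio 1.07, edgeR adjusted p 0.00248), a scaling under which the median over all 620 rises by 0.55 and 34.8% of them were enriched. It was also enriched with a DESeq2 Wald test (log2 ratio 0.52, adjusted p 0.0265) and with limma-voom (log2 ratio 0.52, adjusted p 0.0294). Relative to the median of all tested miRNAs its log2 ratio was 0.58 with TMM scaling and 0.59 with library size alone. Without m7G-RIP replicate 1 the log2 ratio was 0.17 (edgeR adjusted p 0.531). The median over the 773 miRNAs tested in that fit was -0.24, and relative to it miR-130b-5p was at 0.42.

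miR-130b-3p, the seed family arm of the same hairpin, was at 10.0, 14.4 and 10.1 CPM in total RNA and at 12.1, 7.85 and 7.23 CPM in m7G-RIP. The groups overlapped, with m7G-RIP replicate 1 above 2 of the total RNA libraries. Its log2 ratio was -0.35 (SE 0.47, edgeR adjusted p 0.556), and the sign turned to 0.22 with library size alone. At this depth no difference was detectable for the 3p arm.

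Both arms were then compared within each library, where the scaling between libraries cancels. The 5p arm gave 95.3%, 91.8% and 96.0% of the hairpin's counts in total RNA and 96.5%, 96.9% and 97.5% in m7G-RIP. All 3 m7G-RIP libraries lay above the total RNA libraries, by 2.63 percentage points on average (exact two-sided permutation p = 0.1, the smallest that 3 against 3 libraries allow). On the log2 scale the 5p over 3p ratio, with 1 count added to each, was 4.11 ± 0.57 in total RNA and 4.96 ± 0.23 in m7G-RIP (SD, n = 3). The difference of 0.85 had an exact permutation p of 0.1 and 0.3 after adjustment over 9 pairs, so it did not pass the threshold and could not have done so. Without total RNA replicate 2 it was 0.53.

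miR-454-3p, the most abundant strand with the family seed, was at 37.2, 43.5 and 28.7 CPM in total RNA and at 27.1, 30.5 and 32.1 CPM in m7G-RIP. The groups overlapped. The log2 ratio was -0.29 (SE 0.27, edgeR adjusted p 0.392), with a sign that turned to 0.27 with library size alone. miR-454-5p was lower, at 15.1, 8.08 and 11.4 CPM in total RNA and at 7.36, 7.22 and 3.21 CPM in m7G-RIP. Its groups did not overlap, yet the counts behind the m7G-RIP values were only 25, 23 and 12. The log2 ratio was -0.96 (SE 0.57, edgeR adjusted p 0.184).

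The arms of miR-454 had the opposite balance to those of miR-130b, with the 3p arm as the main product. The 5p arm gave 28.9%, 15.7% and 28.5% of the hairpin's counts in total RNA and 21.4%, 19.2% and 9.09% in m7G-RIP. These shares overlapped between the groups, with total RNA replicate 2 among the m7G-RIP values. The mean difference was -7.82 percentage points (exact permutation p = 0.3), and the log2 ratio of 5p over 3p differed by -0.69 (exact permutation p = 0.3, adjusted p = 0.45 over 9 pairs). Across the 139 hairpins with both arms tested, the 5p arm had the higher log2 ratio in 77, and the median difference between the arms was 0.32 with quartiles at -1.04 and 1.75. By the fitted log2 ratios, the difference of miR-130b (0.86) and that of miR-454 (-0.68) both lay between these quartiles.

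**Figure D2:**
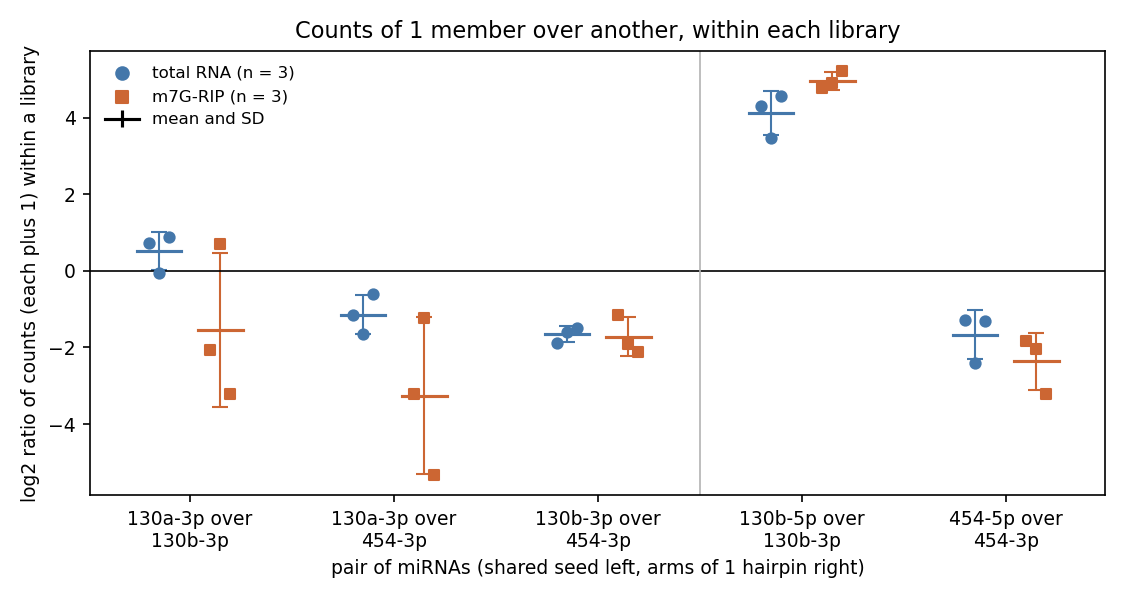
Log2 ratio of the counts of 2 members, each plus 1, within each library, for 3 pairs of 3p arms (left) and the arms of 2 hairpins (right); points are libraries and bars are mean and SD (n = 3 per group). In m7G-RIP all 3 libraries lie above total RNA for miR-130b-5p over miR-130b-3p, and the groups overlap in the other 4 pairs.

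miR-301a, which shares its SKA2 host gene with miR-454, was near the detection limit. miR-301a-3p had 9, 7 and 7 counts in total RNA and miR-301a-5p had 25, 7 and 15. Neither had a count in any m7G-RIP library. The counts to be reached at the depth of an m7G-RIP library were taken from each strand's share of total RNA, without TMM scaling. They were 2.02 to 2.37 for miR-301a-3p and 4.13 to 4.84 for miR-301a-5p. In TMM-scaled CPM, miR-301a-3p was at 0.832 to 1.02 in total RNA against a limit of 0.803 to 0.942 in m7G-RIP. By this limit, set for each library alone, no difference was detectable. The limit does not combine the m7G-RIP libraries. The mean of miR-301a-5p in total RNA, 1.88 ± 0.998 CPM (SD, n = 3), was at least 2.14-fold above the mean m7G-RIP limit of 3 counts per library. Its lowest total RNA library, at 0.832 CPM, lay under the m7G-RIP limit of replicates 1 and 2. The 5p arm gave 63.9% ± 12.3 of the miR-301a counts in total RNA (SD, n = 3), and no share exists for m7G-RIP.

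miR-130a-3p differed most between replicates. It was at 16.6, 13.8 and 18.7 CPM in total RNA and at 2.65, 12.9 and 0.535 CPM in m7G-RIP, from 9, 41 and 2 counts. m7G-RIP replicate 2 was close to the total RNA libraries, while replicates 1 and 3 were far below. The log2 ratio was -1.62 (SE 0.87, edgeR adjusted p 0.146), and without m7G-RIP replicate 2 it was -3.54 (edgeR adjusted p 0.00535). With all 6 libraries it was depleted with no expression filter (log2 ratio -1.92, edgeR adjusted p 0.0115) and with limma-voom (log2 ratio -2.57, adjusted p 0.0187). Of all miRNAs tested, 31.5% were depleted without that library and 14.9% with no filter. Relative to the median of all tested miRNAs, miR-130a-3p was at -1.55 in the main fit and at -1.12 with no filter. With limma-voom it was at -2.29 and without m7G-RIP replicate 2 at -3.21. Replicate 2 was also the m7G-RIP library with the highest muscle markers, and miR-1-3p, a muscle miRNA, had 66, 260 and 2 counts in the same 3 libraries. The part of the muscle markers in the miR-130a-3p value was not tested.

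The family rows that are no members were scarce. miR-130a-5p, the other arm of MIR130A, had 10, 9 and 16 counts in total RNA and 0, 7 and 0 in m7G-RIP. miR-301b-5p had 11, 11 and 8 counts in total RNA and 0, 6 and 0 in m7G-RIP. Both had m7G-RIP counts in replicate 2 alone, and neither was tested. How often other scarce miRNAs had m7G-RIP counts in that library alone was not examined. miR-301b-3p, the close copy of miR-301a-3p, had 1, 0 and 1 counts in total RNA and 0 in m7G-RIP.

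Members with a shared seed were compared in pairs within each library. The difference between miR-130b-3p and miR-454-3p was -0.072 on the log2 scale, from -1.65 ± 0.20 in total RNA to -1.72 ± 0.51 in m7G-RIP (SD, n = 3; exact permutation p = 0.9). Leaving out single libraries moved it between -0.36 and 0.12. miR-130a-3p fell behind miR-130b-3p by -2.04 and behind miR-454-3p by -2.12 on the log2 scale (exact permutation p = 0.2 each, adjusted p = 0.36 over 9 pairs). In both cases the groups overlapped through m7G-RIP replicate 2. Without it the differences were -3.16 and -3.13. Without m7G-RIP replicate 3 they were -1.20 and -1.08. The sequence of miR-130a-3p was not available, so a sharing of reads between it and its seed partners could not be checked. For the 4 pairs with a miR-301a strand, which is at 0 in m7G-RIP, the size of the difference is set by the 1 count added, so it is not given, while their p-values are among the 9 adjusted. All pairs use the same 6 libraries and are not independent.

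The G content of the strands was set beside their ratios, since m7G forms on guanosine. miR-130b-5p has 2 G among 21 bases (9.52%), both single, and miR-454-5p has 2 among 22 (9.09%). miR-130b-3p has 7 among 22 (31.8%) and miR-454-3p has 6 among 23 (26.1%), each with a run of 3 G near the end. The 5p arms thus hold the highest and the lowest log2 ratio of these 4 strands, at 0.51 and -0.96, with nearly the same G content. The 3p arms, with the GGG that 35.7% of 557 tested miRNAs hold, lay between them.

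**Figure D3:**
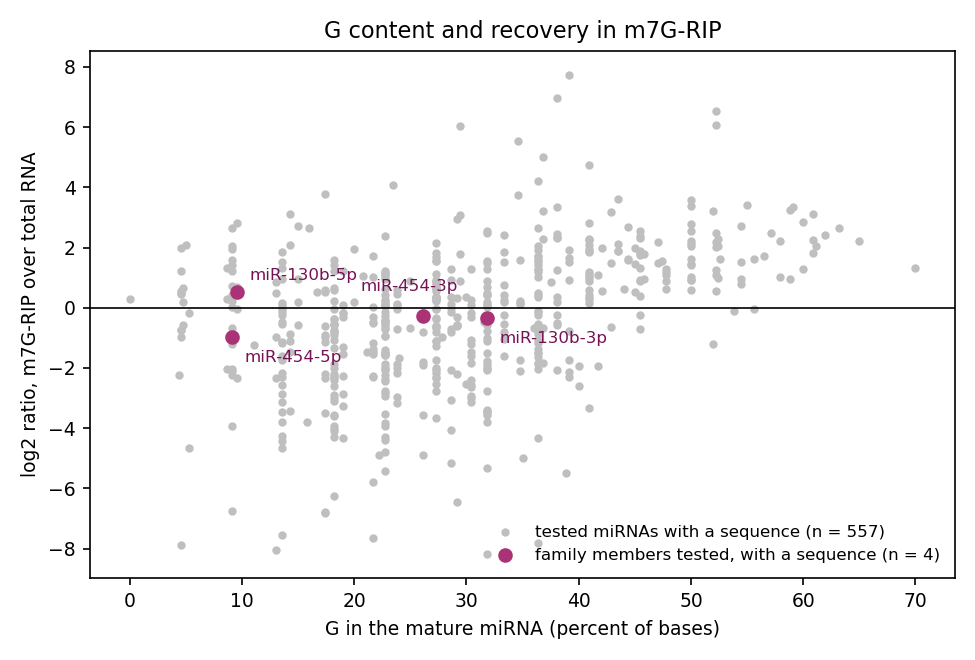
Percent G of the mature sequence against the log2 ratio of m7G-RIP over total RNA for 557 tested miRNAs (grey) and the 4 members among them (coloured). miR-130b-5p and miR-454-5p sit at the low end of G content on either side of 0, and miR-130b-3p and miR-454-3p sit near the middle just below 0.

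The median G content over the 557 tested miRNAs was 27.8%. Across them the log2 ratio rose with G content (Pearson r = 0.41, Spearman rho = 0.436). This is a description across miRNAs, which share libraries and are not replicates. Of the 44 tested miRNAs with at most 10% G, 25 had a log2 ratio above 0 and 17 (38.6%) were at or above miR-130b-5p, as were 37.9% of all 620. Of the same 44, 6 were enriched and 9 depleted. The 4 tested miRNAs that hold UUGCACU were miR-92b-3p (log2 ratio 1.59, edgeR adjusted p 3.88e-05), miR-92a-3p (1.12, edgeR adjusted p 5.33e-05), miR-130b-5p and miR-25-3p (-0.14, edgeR adjusted p 0.266), named after their values were seen.

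miR-148a-3p, miR-148b-3p and miR-152-3p carry the 6 bases AGUGCA of the family seed shifted by 1 position, and miR-19a-3p and miR-19b-3p carry GUGCAAA. They were therefore taken as the nearest families.
miR-148a-3p: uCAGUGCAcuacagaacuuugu
miR-152-3p: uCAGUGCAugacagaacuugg
miR-19b-3p: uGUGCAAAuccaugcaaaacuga
Of the 6 miR-148 and miR-152 strands 5 were depleted, and of the 2 tested miR-19 strands both were, where 29.2% of all tested miRNAs were depleted. miR-152-5p and miR-19a-3p, 1 of each, were at the m7G-RIP limit. miR-19b-3p, at 156 ± 12.4 CPM in input, fell to 1.36 ± 0.682 CPM after m7G-RIP (SD, n = 3; log2 ratio -6.82, edgeR adjusted p 6.10e-07), and miR-148a-3p had a log2 ratio of -3.55. The log2 ratio of miR-148b-3p was only -0.81 (SE 0.14, edgeR adjusted p 0.000972). The members miR-130a-3p (-1.62, SE 0.87) and miR-454-5p (-0.96, SE 0.57) had lower ratios with wider errors and were not called. miR-152-3p did not pass the threshold, at 197 ± 8.33 CPM in the total RNA libraries and 213 ± 46.3 CPM after m7G-RIP (SD, n = 3; log2 ratio 0.11, edgeR adjusted p 0.627).

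miR-454-3p, as the most abundant strand with the family seed, was set against 4 of these strands within each library, a comparison chosen after their values were seen. Its ratio to miR-19b-3p was higher by 6.40 on the log2 scale in m7G-RIP, that to miR-148a-3p by 3.30 and that to miR-148b-3p by 0.55, each without overlap (exact permutation p = 0.1, the smallest possible, adjusted p = 0.133 over 4 pairs). Against miR-152-3p it differed by -0.35 with overlapping groups (exact permutation p = 0.2, adjusted p = 0.2). None of these differences passed the threshold, which the design could not reach.

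**Figure D4:**
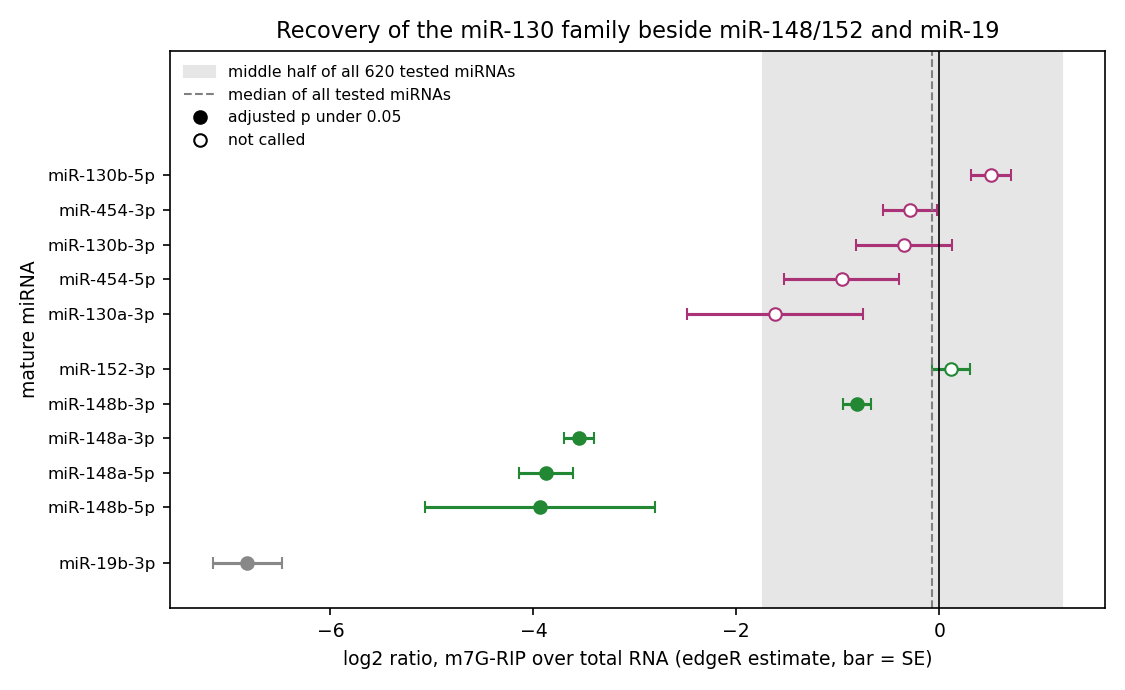
Log2 ratio of m7G-RIP over total RNA (edgeR estimate, bars are SE) for the tested miR-130, miR-301 and miR-454 strands, the miR-148 and miR-152 strands and miR-19b-3p; miR-152-5p and miR-19a-3p, at the limit in m7G-RIP, are left out. The 5 family members, all open circles, lie from -1.62 to 0.51, between the quartiles of all 620 tested miRNAs (-1.74 and 1.21, shaded). miR-148b-3p (-0.81) and miR-152-3p (0.11) also lie there, while miR-148a, miR-148b-5p and miR-19b-3p lie far below.

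The strands whose levels over the 6 libraries were most like those of miR-454-3p, by the root mean square difference in centred log2 CPM, were miR-532-3p (0.101), miR-129-5p (0.150) and miR-28-5p (0.154). For miR-130b-5p they were miR-6772-3p (0.117), miR-1292-5p (0.132) and miR-3928-3p (0.137). With 2 groups of 3 libraries, this likeness is mostly a likeness of the ratio of m7G-RIP to total RNA.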

How the data were processed

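Raw read counts of mature miRNAs, without normalization, were deposited by the authors for 3 total RNA and 3 m7G-RIP libraries. Per the study's methods, adaptors were trimmed with Trimmomatic, reads were mapped end to end to GRCh38 with STAR, with multi-mapping allowed, and counted over the mature miRNAs of miRBase by featureCounts. The submitters' processing notes name Bowtie2 as well. How reads with several alignments were counted is not stated in the sources used here, and counts are PCR reads without molecular identifiers. Some rows of like name rose and fell together. In total RNA miR-6511a-5p had 12, 156 and 108 counts and miR-6511b-5p 6, 78 and 54. In m7G-RIP they had 88, 32 and 136, and 44, 16 and 68. Whether such rows count the same reads was not tested. Nothing in the labels says that replicates were separate cultures, so p-values measure the spread between these libraries.

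The fit across all miRNAs used edgeR 4.0.16 under R 4.3.3 (TMM scaling, default filter by group, robust quasi-likelihood F test, no replicate block), with Benjamini-Hochberg adjustment over all 620 miRNAs tested and a threshold of 0.05. Pairs of miRNAs were compared by the log2 ratio of their counts plus 1 within a library, with exact two-sided permutation tests adjusted over the 9 pairs planned. Replicates differed by more than counting noise (chi-square per degree of freedom 22.2 to 112). Mature sequences and hairpin positions came from RefSeq (GRCh38.p14; 557 of 620 tested miRNAs matched), and host genes from GENCODE (GRCh38). Alternatives covered scaling, filters, DESeq2 1.42.0, limma-voom (limma 3.58.1), the pseudocount, leaving out each library in turn, and a block for the replicate number.

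Named miRNAs were the 7 members, the 3 other family rows, rows with the same seed, the miR-148, miR-152 and miR-19 strands, and for the most abundant 3p and 5p member the 3 most similar miRNAs. The members and lists were chosen with earlier results of these data known.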

Additional observations from a re-analysis of the deposited data

How the results depend on the processing

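Calls of members depended on the setting. With library size alone, with library sizes that leave out the 10 most abundant miRNAs, with DESeq2, with limma-voom and with the replicate block, 1 member was enriched against 0 reported, miR-130b-5p in each (log2 ratio 0.52 to 1.07), where these settings called from 19.7% to 34.8% of all 620 enriched. Under both scalings the median over all 620 rises, by 0.55 and 0.45. The cause for the tools was not tested. With no filter and with limma-voom, 1 member was depleted, miR-130a-3p in both, against 14.9% and 35.3% of all tested miRNAs. The median over all tested miRNAs shifted by -0.72 and -0.20 in these 2 settings. The fit with no filter used all libraries, tested all 7 members and did not call miR-301a-5p. Across the fits without a library 0 members were enriched and from 0 to 2 depleted. These were miR-130a-3p without m7G-RIP replicate 2 and miR-301a-5p without each m7G-RIP library, where the filter admits it although its m7G-RIP counts are 0, and where from 29.8% to 31.5% of all tested miRNAs were depleted. The log2 ratio of miR-130b-3p turned to 0.22 and 0.13 under these scalings, and that of miR-454-3p to 0.27 and 0.17. Relative to the median over all 620, miR-130b-3p was at -0.26 and -0.25 there, and miR-454-3p at -0.21 in both.

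The difference between miR-130b-3p and miR-454-3p turned to 0.0097 without total RNA replicate 3, 0.023 without m7G-RIP replicate 2 and 0.12 without m7G-RIP replicate 3, and ran from -0.36 to 0.12 over the fits without a library. The other 4 pair differences and both arm shares kept their sign in the alternatives run. Without a library they ran from 0.53 to 1.07 for the miR-130b arms, from -1.06 to -0.26 for the miR-454 arms, from -3.16 to -1.20 for miR-130a-3p against miR-130b-3p and from -3.13 to -1.08 against miR-454-3p. For miR-130a-3p the filter of 10 counts in each library left no value.

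Libraries were not treated as paired by number, since the deviations of same-numbered libraries had correlations of -0.0433, -0.101 and 0.0641. With the replicate block the log2 ratio of miR-130b-5p was 0.52 with an edgeR adjusted p of 0.0411, the miR-130b arm difference was 0.85 (exact sign-flip p = 0.25), and 0 members were depleted.

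Counts of the family were low: besides miR-130b-5p, its strands had from 0 to 120 counts in an m7G-RIP library. The part of depth in the lack of calls was not tested.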
